A study of Mus musculus with 10 samples.

Results

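The 10 genes *Atf4*, *Atf3*, *Atf5*, *Ddit3*, *Jdp2*, *Trib3*, *Nupr1*, *Chac1*, *Sesn2* and *Ddit4* encode regulators of the ATF4 stress response. They were taken by gene symbol from the 43346 genes of the deposited count table, and all 10 passed the filter on low counts in every comparison. The genes were chosen by their role together with their measured differences between knockout clones and wildtype cells, which were known, so those differences are described here with standard errors (SE) and without p-values.

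RNA came from O9-1 cells, a tetraploid mouse line derived from the cranial neural crest, as 4 independent wildtype samples, 3 Kat5 ko clones and 3 Ep400 ko clones. *Kat5* encodes the histone acetyltransferase and *Ep400* the ATPase of the Tip60/Ep400 chromatin remodeling complex. Both genes had been cut with CRISPR/Cas9, each clone was grown from a single edited cell, and all groups were kept on matrigel in the same conditioned medium. Kat5/1, Kat5/2 and Kat5/3 carried frameshifts in all 4 alleles, as did Ep400/1. Clone Ep400/3 kept 1 allele with an in-frame deletion beside its frameshifts, and in Ep400/2 most alleles had an in-frame deletion at the ATP binding site.

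ATF4 is a basic leucine zipper (bZIP) transcription factor. When endoplasmic reticulum stress, lack of amino acids, lack of heme or viral RNA activates a kinase that phosphorylates the initiation factor eIF2, general translation drops while the *Atf4* mRNA, which carries upstream open reading frames, is translated more. ATF4 then dimerizes with other bZIP factors, binds composite C/EBP-ATF elements and activates genes for amino acid synthesis, amino acid import and tRNA charging, together with a layer of further regulators. These include the bZIP factors ATF3, ATF5 and CHOP (from *Ddit3*), the pseudokinase TRIB3, which restrains ATF4 and CHOP, and the mTORC1 inhibitors sestrin 2 (*Sesn2*) and REDD1 (*Ddit4*).

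The known core of the C/EBP-ATF element, TGATGNAA, was searched on both strands of the RefSeq promoters (GRCm38.p6, 250 bases before to 50 bases after each start). The windows with a match in the 10 regulators are shown to give the positions of the motif in the genes described next. It was found in *Atf3*, *Chac1*, *Jdp2*, *Nupr1* and *Trib3*, which are 5 of the 10 genes, against 3.97% of 32851 promoters and 4.51% of 27025 genes. The stricter form TGATGCAA, which is contained in the first motif, was found in 4 of the 10 genes and in 0.895% of promoters. The cyclic AMP element TGACGTCA, which shares no full match with the other motifs, was found in 0 of the 10 genes and in 1.79% of promoters. Each line gives 30 bases in the direction of the gene's transcription, and capitals mark the match, which reads as TTGCATCA or the like where it lies on the opposite strand. A match is only a match of letters, and a window without one says nothing about binding of a factor.
Atf3 (chr1:191183425-191183454, minus strand): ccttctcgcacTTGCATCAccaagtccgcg
Chac1 (chr2:119351038-119351067, plus strand): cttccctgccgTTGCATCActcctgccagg
Trib3 (chr2:152344028-152344057, minus strand): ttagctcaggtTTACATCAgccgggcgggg
Nupr1 (chr7:126625562-126625591, minus strand): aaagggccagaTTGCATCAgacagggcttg
Jdp2 (chr12:85599372-85599401, plus strand): atagccggggcTGATGCAAcccgtcccgcc

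Counted from the RefSeq start, which in *Atf3* and *Nupr1* lies inside the longer gene span given below, the match began 110 bases before it in *Atf3* and in *Nupr1*, 193 before it in *Chac1*, 33 before the second listed start in *Jdp2* and 15 after it in *Trib3*. Lists of ATF4 target genes written from general knowledge held the motif too, in 5 of 8 tRNA synthetase genes, 4 of 13 amino acid synthesis genes and 2 of 8 transporter genes that had a promoter in the table. The list of ATF6 and XBP1 genes, which stand for the other arms of the unfolded protein response, had 0 of 21. The windows of 4 target genes, whose values follow further below, are given for comparison with those of the regulators.
Asns (chr6:7693214-7693243, minus strand): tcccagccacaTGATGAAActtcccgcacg
Pck2 (chr14:55540152-55540181, plus strand): agccttcaaagTTACATCAgtatcttacag
Gars (chr6:55037960-55037989, plus strand): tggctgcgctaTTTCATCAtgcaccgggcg
Iars (chr13:49682126-49682155, plus strand): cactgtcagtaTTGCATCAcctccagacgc

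Between 30968945 and 48301792 reads per library were counted on genes, and the 10 regulators had at least 83 raw counts (*Trib3*, Kat5/1) and up to 24165 (*Atf4*, wildtype sample 3). Levels are given as CPM, read counts scaled to a common library size, after TMM normalization over all 10 libraries. *Kat5* was at 38.7% of its wildtype mean in the Kat5 ko clones and *Ep400* at 36.8% in the Ep400 ko clones, with every clone below all wildtype samples. Of 13 neural crest markers, 9 had a mean of at least 1 CPM in wildtype cells, while *Sox10* and *Foxd3* stayed below 0.1 CPM in every group. Smooth muscle and pericyte markers summed to 79.2–177 CPM in wildtype samples, 65.7–787 CPM in Kat5 ko clones and 281–345 CPM in Ep400 ko clones. Markers of neurons and glia summed to 4.201–7.34, 4.80–16.8 and 12.6–26.8 CPM, and neural crest markers to 1102–1306, 1115–1194 and 1324–2604 CPM in these groups. Epithelial markers (1.65–4.80, 0.419–0.827 and 0.563–0.971 CPM) and endothelial markers (0.983–1.68, 0.198–0.717 and 0.219–0.473 CPM) were lower in all clones than in wildtype samples. The part of these markers in the results was not tested. In bulk RNA, fewer cells with a transcript and less transcript per cell cannot be told apart.

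In wildtype cells, *Atf4* was by far the most abundant of the regulators. Per kilobase of exon it reached 216 ± 36.7 CPM (SD, n = 4). *Ddit4* (48.6 ± 21.2) and *Atf5* (46.9 ± 16.05) followed, then *Chac1* (26.9 ± 14.96), *Trib3* (20.7 ± 9.68), *Jdp2* (19.7 ± 2.63), *Ddit3* (19.1 ± 6.21), *Sesn2* (17.4 ± 4.27) and *Nupr1* (14.4 ± 6.47), and *Atf3* came last at 5.91 ± 1.70 CPM per kilobase. *Atf4* stood above and *Atf3* below the range of its neighbour in all samples, whereas the ranges of all other neighbours in this order overlapped.

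Transcript levels of ATF4 itself were moderately lower in both knockouts. *Atf4* (ENSMUSG00000042406, chr15:80255184-80257541, plus strand) had 512, 444, 631 and 451 CPM in wildtype samples 1 to 4, or 509 ± 86.5 (SD, n = 4). It had 253, 393 and 363 CPM in Kat5/1, Kat5/2 and Kat5/3 (336 ± 73.9, SD, n = 3) and 352, 466 and 193 CPM in Ep400/1, Ep400/2 and Ep400/3 (337 ± 137, SD, n = 3). All Kat5 ko clones lay below the wildtype range, while Ep400/2 lay inside it and Ep400/3 had the lowest level of all libraries. The log2-fold change was −0.63 (SE 0.198) for Kat5 and −0.60 (SE 0.286) for Ep400, so that both groups kept about 66.0% and 66.2% of the wildtype mean. All genes of chromosome 15 together had a median log2 deviation of −0.35 in Kat5/1, the Kat5 ko clone with the lowest *Atf4* level, 0.068 in Kat5/2 and 0.23 in Kat5/3, and the part of this shift in the *Atf4* level was not tested.

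**Figure D1:**
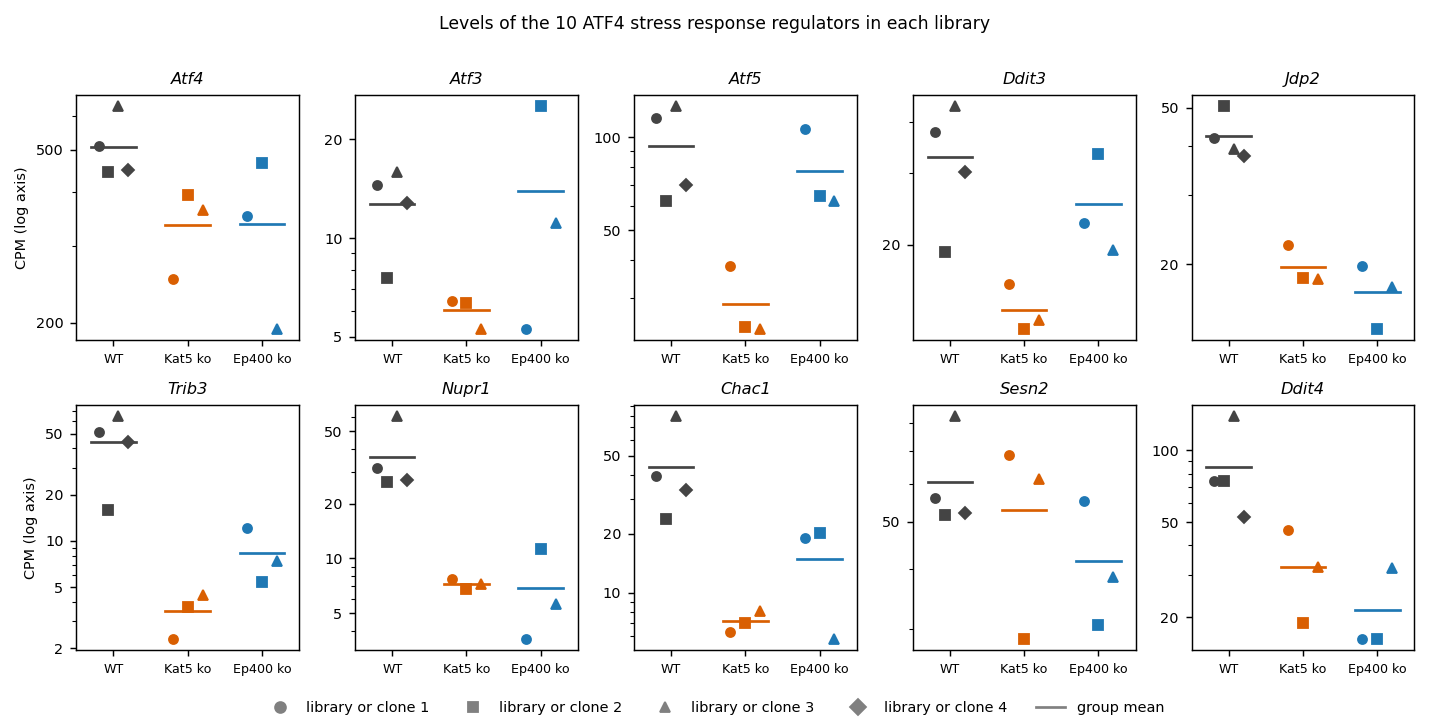
CPM on a log axis for the 10 regulators in each library, with wildtype samples in grey, Kat5 ko clones in orange, Ep400 ko clones in blue, marker shapes for sample or clone numbers and lines at group means. All 3 Kat5 ko clones sit below the wildtype samples for 9 genes, all except *Sesn2*, against 10.2% of all genes. All 3 Ep400 ko clones do so for 5 genes, against 14.1% of all genes.

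Among the bZIP partners, all clones of both knockouts lay below the wildtype range for *Jdp2*, and all Kat5 ko clones did so for *Atf5*, *Ddit3* and *Atf3*. ATF5 resembles ATF4 in its translational control and acts in the mitochondrial stress response. *Atf5* (ENSMUSG00000038539, chr7:44812256-44816658, minus strand) had 115, 62.2, 126 and 70.1 CPM in the wildtype samples. The Kat5 ko clones had 38.4, 24.2 and 23.9 CPM, and the Ep400 ko clones 106, 64.6 and 62.2 CPM. Every Kat5 ko clone was thus below all wildtype samples, while the Ep400 ko clones spread over the wildtype range with Ep400/3 just under its lower end. The log2-fold change was −1.73 (SE 0.314) for Kat5 and −0.27 (SE 0.301) for Ep400.

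*Ddit3* (ENSMUSG00000025408, chr10:127290774-127296288, plus strand) encodes CHOP, which links prolonged stress to cell death. It had 37.9, 19.2, 43.8 and 30.2 CPM in wildtype samples, 16.01, 12.4 and 13.0 CPM in the Kat5 ko clones and 22.6, 33.4 and 19.4 CPM in the Ep400 ko clones. No Kat5 ko clone reached the lowest wildtype sample, and no Ep400 ko clone was below it. The log2-fold changes were −1.28 (SE 0.283) for Kat5 and −0.38 (SE 0.300) for Ep400.

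*Atf3* (ENSMUSG00000026628, chr1:191170296-191218039, minus strand), an immediate response gene for many kinds of stress, was the weakest of the regulators in wildtype cells with 14.6, 7.57, 15.9 and 12.8 CPM. The Kat5 ko clones had 6.45, 6.33 and 5.29 CPM. Levels in the Ep400 ko clones were 5.28, 25.2 and 11.2 CPM. Kat5 ko clones were close to each other and below all wildtype samples, but the Ep400 ko clones had no common direction, with Ep400/1 below the wildtype range and Ep400/2, at 198% of the wildtype mean, above it. The log2-fold change was −1.11 (SE 0.287) for Kat5 and 0.12 (SE 0.482) for Ep400, and the latter was −0.66 without Ep400/2. Genes of chromosome 1 were shifted by a median of −0.23 in Kat5/1, −0.040 in Kat5/2 and 0.016 in Kat5/3, and the part of these shifts in the *Atf3* level was not tested.

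JDP2 forms dimers with Jun proteins and ATF factors and represses their targets. *Jdp2* (ENSMUSG00000034271, chr12:85599027-85639878, plus strand) had 41.8, 50.4, 39.2 and 37.8 CPM in wildtype samples, or 42.3 ± 5.66 (SD, n = 4). The Kat5 ko clones had 22.4, 18.5 and 18.3 CPM (19.7 ± 2.30, SD, n = 3) and the Ep400 ko clones 19.8, 13.7 and 17.5 CPM (17.0 ± 3.08, SD, n = 3). Both groups of clones were separated from the wildtype samples, with a log2-fold change of −1.13 (SE 0.166) for Kat5 and −1.32 (SE 0.184) for Ep400. These standard errors were the smallest among the 10 genes. Genes of chromosome 12 were shifted by a median of −0.27 in Kat5/1, 0.089 in Kat5/2 and −0.00055 in Kat5/3, where *Jdp2* was at 52.9%, 43.7% and 43.2% of the wildtype mean, and the part of these shifts in its level was not tested.

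Exons of *Atf5* share 82 bases with *Nup62* and with *Il4i1* on the opposite strand, those of *Ddit3* share 68 bases with *Mars* and 105 bases with a further annotated entry of the same name, and those of *Jdp2* share 165 bases with *Gm47863*. The libraries were made with a stranded kit, but the strand setting of the counting is not given in the sources used here, so reads from these stretches are uncertain.

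Of the Kat5 contrasts, the largest differences were those of *Trib3*, *Nupr1* and *Chac1*, while for Ep400 that of *Ddit4* exceeded that of *Chac1*. *Trib3*, *Nupr1* and *Chac1* encode feedback regulators and effectors downstream of ATF4 and CHOP. *Trib3* (ENSMUSG00000032715, chr2:152337422-152344032, minus strand) had 51.2, 15.95, 64.7 and 44.4 CPM in the wildtype samples. It was down to 2.29, 3.69 and 4.43 CPM in the Kat5 ko clones and to 12.1, 5.41 and 7.44 CPM in the Ep400 ko clones. All 6 clones were below wildtype sample 2, which was itself far below the other wildtype samples. The group means corresponded to 7.87% of wildtype for Kat5 and 18.9% for Ep400, with log2-fold changes of −3.70 (SE 0.497) and −2.40 (SE 0.481).

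*Nupr1* (ENSMUSG00000030717, chr7:126623249-126630861, minus strand), a small chromatin-associated stress protein that acts with CHOP upstream of *Trib3*, had 31.2, 26.3, 60.4 and 27.1 CPM in wildtype samples. The Kat5 ko clones lay close together at 7.72, 6.82 and 7.18 CPM. The Ep400 ko clones had 3.59, 11.3 and 5.58 CPM. Neither group overlapped with wildtype, and the means were at 19.97% and 18.8% of the wildtype mean. The log2-fold changes were −2.35 (SE 0.326) for Kat5 and −2.41 (SE 0.463) for Ep400.

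*Chac1* (ENSMUSG00000027313, chr2:119351229-119354381, plus strand) encodes an enzyme that degrades glutathione. Its levels were 39.6, 23.7, 79.5 and 33.6 CPM in wildtype samples, 6.34, 7.05 and 8.09 CPM in the Kat5 ko clones and 19.0, 20.1 and 5.800 CPM in the Ep400 ko clones. All clones were below the wildtype range, but Ep400/1 and Ep400/2 came close to its lower end while Ep400/3 was as low as the Kat5 ko clones. The log2-fold changes were −2.65 (SE 0.409) for Kat5 and −1.56 (SE 0.520) for Ep400.

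Of the mTORC1 inhibitors, *Ddit4* was lower in all clones and *Sesn2* in some of them. *Ddit4* (ENSMUSG00000020108, chr10:59949669-59951834, minus strand), whose product REDD1 is also induced by hypoxia and glucocorticoids, had 74.6, 74.6, 139 and 52.7 CPM in wildtype samples. It had 46.5, 18.8 and 32.3 CPM in the Kat5 ko clones and 16.3, 16.2 and 32.0 CPM in the Ep400 ko clones. All clones were below the wildtype range, although Kat5/1 was near it. The log2-fold change was −1.41 (SE 0.396) for Kat5 and −1.99 (SE 0.387) for Ep400.

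*Sesn2* (ENSMUSG00000028893, chr4:132492032-132510501, minus strand), whose product senses leucine and is also a p53 target, had 56.0, 51.6, 82.7 and 52.1 CPM in wildtype samples. The Kat5 ko clones had 68.7, 28.6 and 61.5 CPM and the Ep400 ko clones 55.2, 30.6 and 38.5 CPM. Kat5/1 and Kat5/3 were inside the wildtype range and Kat5/2 far below it, while Ep400/2 and Ep400/3 were below it. The log2-fold change was −0.22 (SE 0.310) for Kat5, the smallest in size of the 10 genes, and turned to 0.087 without Kat5/2. For Ep400 it was −0.55 (SE 0.248).

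Counted over all 10 regulators, the log2-fold change was negative for 10 in the Kat5 ko clones, with a median of −1.34 against 3.2e-05 for the 13434 genes tested. It was negative for 9 in the Ep400 ko clones, with a median of −0.96 against 0.043 for 13836 genes. The threshold of an adjusted p of at most 0.05 over all genes (edgeR) was reached by *Trib3*, *Nupr1*, *Jdp2* and *Chac1* in the Kat5 ko clones, where 0.447% of all genes were called lower and 0.625% in either direction. In the Ep400 ko clones it was reached by *Jdp2*, *Nupr1*, *Ddit4* and *Trib3*, with 5.72% of all genes called lower and 13.7% in either direction. Groups did not overlap for 9 regulators in the Kat5 ko clones, against 10.2% of all genes that were lower and 9.67% that were higher without overlap, and for 5 in the Ep400 ko clones, against 14.1% lower and 16.1% higher. Nothing is read from these counts, since the genes were picked with these contrasts known.

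The number called in the Kat5 ko clones depended on single libraries. It was 0 without wildtype sample 1, wildtype sample 4, Kat5/2 or Kat5/3, 2 without wildtype sample 3, 4 without wildtype sample 2 and 8 without Kat5/1. For Ep400 it was 3 without Ep400/3 and 4 with any other library left out. Both contrasts share the wildtype samples, so their values stand side by side as separate descriptions.

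**Figure D2:**
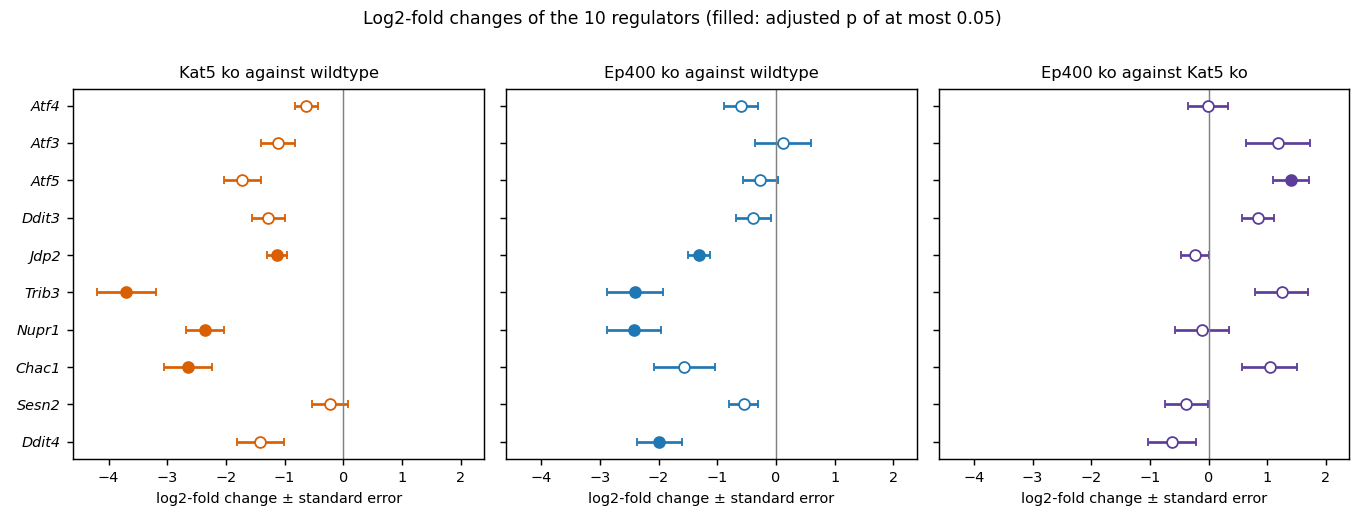
Log2-fold change with its standard error for each regulator in the 3 comparisons, filled where the adjusted p over all genes was at most 0.05. Against wildtype, values run from −3.70 to −0.22 for Kat5 and from −2.41 to 0.12 for Ep400, and in the direct comparison *Atf5* is the filled gene, at 1.41.

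The regulators also varied together between the wildtype samples. Wildtype sample 3 had the highest level for 9 of the 10 genes and wildtype sample 2 the lowest for 8, whereas over 14028 genes these samples were highest for 33.2% and lowest for 27.5%. Relative to the wildtype mean, the median of the regulators was 0.0073, −0.45, 0.49 and −0.18 on the log2 scale in wildtype samples 1 to 4. *Jdp2* was the exception, with its highest level in wildtype sample 2. Mitochondrial genes held 1.55%, 1.20%, 2.43% and 1.78% of the counts in wildtype samples 1 to 4. Their share was 0.893–1.24% in Kat5 ko and 1.58–3.24% in Ep400 ko clones, and its part in the levels was not tested. The highest wildtype level exceeded the lowest by a factor of 4.06 for *Trib3*, 3.36 for *Chac1* and 2.30 for *Nupr1*, but of 1.42 for *Atf4* and 1.33 for *Jdp2*.

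Among the clones, the median of the regulators was −0.98, −1.61 and −1.28 in Kat5/1, Kat5/2 and Kat5/3 and −1.08, −0.97 and −1.29 in Ep400/1, Ep400/2 and Ep400/3. The median of all genes stayed between −0.0041 and 0.023 in every library. Clones of one group with similar medians differed in single genes. Ep400/3 had the lowest *Atf4* and *Chac1* levels of the Ep400 ko clones, Ep400/1 had the lowest *Atf3* and *Nupr1* levels, and Ep400/2, the clone with most in-frame alleles, had the highest *Atf4*, *Atf3*, *Ddit3*, *Nupr1* and *Chac1* but the lowest *Jdp2*, *Trib3*, *Sesn2* and *Ddit4* levels.

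**Figure D3:**
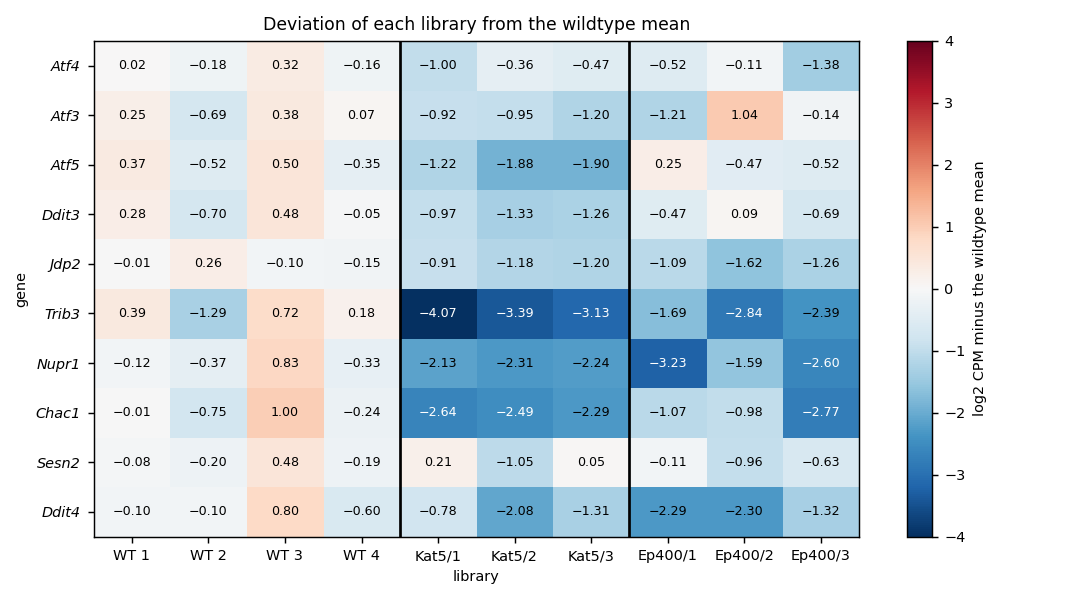
Difference of each library's log2 CPM from the wildtype mean, with genes as rows, libraries as columns and black lines between the groups. Blue fields of *Trib3*, *Nupr1* and *Chac1* reach −4.07 in Kat5/1, while Ep400/2 stands out with 1.04 for *Atf3* and wildtype sample 3 is above the mean for all genes but *Jdp2*.

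The knockouts were also compared directly. The genes were chosen with the difference of each knockout from wildtype known. Those differences largely fix this contrast too, so its p-values are a description and no independent test of the chosen genes. *Atf5* was higher in Ep400 ko than in Kat5 ko clones, by 1.41 on the log2 scale (SE 0.309, adjusted p = 0.0433, quasi-likelihood test of edgeR over 13587 genes), and every Ep400 ko clone was above every Kat5 ko clone. It was the only regulator called, where 4.22% of all genes were called higher and 7.05% in either direction. The call was lost without Kat5/2, Kat5/3, Ep400/1, Ep400/2 or Ep400/3, with log2-fold changes of 1.11 to 1.55 and adjusted p of 0.0695 to 0.150, and adjusted p over all alternatives ranged from 0.00145 to 0.150.

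Ranges of the knockouts did not overlap for *Ddit3* and *Trib3* either, which makes 3 of the 10 genes higher in all Ep400 ko clones, as were 20.5% of all genes. The log2-fold change between the knockouts was 0.84 (SE 0.277, adjusted p = 0.0888) for *Ddit3* and 1.24 (SE 0.452, adjusted p = 0.109) for *Trib3* by edgeR. For *Trib3*, DESeq2 gave an adjusted p of 0.0309. *Atf3* (1.18, SE 0.543, adjusted p = 0.176) and *Chac1* (1.04, SE 0.472, adjusted p = 0.171) had values in the same direction with overlapping clones. No difference was detectable by edgeR for *Atf4* (−0.014, SE 0.346, adjusted p = 0.981), *Nupr1* (−0.11, SE 0.461, adjusted p = 0.886), *Jdp2* (−0.24, SE 0.242, adjusted p = 0.523), *Sesn2* (−0.38, SE 0.372, adjusted p = 0.508) and *Ddit4* (−0.63, SE 0.409, adjusted p = 0.317), and the signs of *Atf4* and *Nupr1* turned when single libraries were left out, as did that of *Atf4* with scaling by library size alone.

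Genes that ATF4 regulates were examined through lists written from general knowledge of the pathway, with earlier results of these data known. From these same samples the study had picked *Pck2*, *Aldh18a1*, *Asns*, *Aars* and *Eif4ebp1* for chromatin immunoprecipitation. It reports more of the histone variant H2A.Z and less acetylated histone H4 near their starts in both knockouts. By RT-PCR it also reports lower levels of select deregulated genes in both knockouts, with primers for *Aars*, *Cth*, *Gpt2*, *Psph*, *Pycr1*, *Gars* and *Tars*, among others. Primers for the regulators *Ddit4* and *Nupr1* are listed there too. These lists are therefore no independent evidence of a direction. For the lists, genes counted as fallen or risen are those called. Of all genes, 0.447% were called lower for Kat5 and 5.72% for Ep400. Of 15 tested genes for synthesis of amino acids and one-carbon units, 5 fell in the Kat5 ko clones, with a median of −0.96 and 13 estimates lower. For Ep400, 11 fell, with a median of −1.60 and all 15 estimates lower. *Aldh1l2*, a mitochondrial folate enzyme, fell by 3.27 on the log2 scale (SE 0.494, adjusted p = 0.0434 by edgeR) for Kat5 and by 2.89 (SE 0.534, adjusted p = 0.0125) for Ep400, from 94.3 ± 33.0 CPM (SD, n = 4) to 9.998 ± 6.44 and 12.7 ± 8.08 CPM (SD, n = 3 each).

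In Kat5 ko clones, *Cth*, which makes cysteine from cystathionine, fell by 3.23 and the alanine transaminase gene *Gpt2* by 2.64 on the log2 scale (adjusted p = 0.0493 and 0.0174 by edgeR). In Ep400 ko clones, the proline synthesis gene *Aldh18a1* fell by 2.00 and *Pck2*, for mitochondrial phosphoenolpyruvate carboxykinase, by 1.97 (adjusted p = 0.00369 and 0.00518). These genes were not particular to 1 knockout. All Ep400 ko clones were below wildtype for *Cth* (2.59–4.15 against 7.28–12.5 CPM) and *Gpt2* (23.1–37.5 against 80.0–160 CPM). All Kat5 ko clones were below it for *Aldh18a1* (92.2–138 against 188–272 CPM). *Pck2* also fell in Kat5 ko clones (−2.10, adjusted p = 0.0174). *Asns*, encoding asparagine synthetase and shown above with its promoter match, fell by 1.29 in Kat5 ko and by 1.60 in Ep400 ko clones (adjusted p = 0.0482 and 0.0195). With 1 library left out, 0 to 8 genes of this list fell in the Kat5 ko clones, with 0 when wildtype sample 1, wildtype sample 4 or Kat5/3 was missing, 2 without wildtype sample 3, 3 without wildtype sample 2 or Kat5/2 and 8 without Kat5/1. In the Ep400 ko clones 7 to 12 fell, with 7 when wildtype sample 1 or 4 was missing.

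The aminoacyl-tRNA synthetase list, which includes the tRNA exporter gene *Xpot*, differed in its counts. In the Ep400 ko clones 12 of 13 genes fell, with a median of −1.05 and all 13 estimates lower, where 5.72% of all genes were called lower. *Lars* fell by 1.32 (adjusted p = 0.00855), *Gars* by 1.24 (adjusted p = 0.0164) and *Iars* by 1.22 (adjusted p = 0.0153) on the log2 scale by edgeR. In the Kat5 ko clones 11 of 13 estimates were lower, with a median of −0.20, and 0 passed the test by edgeR. There 3 were lower at an unadjusted p of at most 0.05, 1 was called lower by DESeq2 and 0 by limma-voom. *Aars* had 406 ± 112 CPM in the Kat5 ko clones (SD, n = 3) against 554 ± 111 in wildtype (SD, n = 4). In another tissue, pharyngeal arches of embryos without Kat5 or Ep400 in the neural crest, the study reports lower *Aars* by RT-PCR.

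In the direct comparison all 13 synthetase genes had lower estimates in Ep400 ko than in Kat5 ko clones, with a median of −0.81, and *Lars* passed the test (−1.17, adjusted p = 0.0411 by edgeR), where 2.83% of all genes were called lower. DESeq2 called 7 lower and limma-voom 1, and by edgeR 0 were called without Kat5/2, Kat5/3, Ep400/1, Ep400/2 or Ep400/3 and 3 without Kat5/1. Of the regulators, 5 had higher and 5 had lower estimates in the same comparison. Medians of lists described below were also negative there for hypoxia targets (−0.61), mitochondrial chaperones (−0.52) and eIF2 control (−0.48). They were positive for other ATF4 and CHOP targets (0.47), glucocorticoid targets (0.40) and mTORC1 (0.31). With 1 library left out, 4 to 11 synthetase genes fell in the Ep400 ko clones, with 4 when wildtype sample 4 was missing, 5 without wildtype sample 1, 6 without Ep400/2, 7 without wildtype sample 3 and 8 without wildtype sample 2.

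Of 11 amino acid transporter genes, 1 fell in the Ep400 ko clones (median −0.90). This was *Slc38a1*, for a glutamine carrier, which dropped from 86.0 ± 37.1 CPM (SD, n = 4) to 2.52 ± 2.92 CPM (SD, n = 3). At an unadjusted p of at most 0.05, 1 transporter gene was higher and 6 were lower for Ep400, DESeq2 called 4 lower and limma-voom 1. In the Kat5 ko clones 0 passed by edgeR (median −0.16), 1 was higher and 2 were lower at an unadjusted p of at most 0.05, DESeq2 called 2 lower and limma-voom 0. *Slc38a1* was also lower in Ep400 ko than in Kat5 ko clones (−5.75 on the log2 scale, adjusted p = 0.0333 by edgeR), a call that was lost without Kat5/2, Kat5/3, Ep400/2 or Ep400/3.

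Of other ATF4 and CHOP targets, 2 of 22 fell in the Kat5 ko clones (median −0.55), while 5 of 23 fell and 2 rose in the Ep400 ko clones (median −0.054, also with *Fgf21* at the bound that a floor of 3 counts gives). Of all genes tested for Ep400, 8% were called higher, and the counts of genes that rose in the lists stand against this share. *Adm2*, for the secreted peptide adrenomedullin 2, fell in both knockouts, from 4.37 ± 1.63 CPM (SD, n = 4) to 0.332 ± 0.123 CPM for Kat5 and 0.110 ± 0.0704 CPM for Ep400 (SD, n = 3 each). *Fgf21*, which encodes a secreted metabolic hormone, had 0.173 to 1.54 CPM in wildtype samples and was listed at 0 in all Ep400 ko clones. The other genes that fell in Ep400 ko clones were *Cebpg*, *Ero1l* and *Herpud1*, and the autophagy gene *Atg12* rose, all named after their values were seen. *Vldlr*, a lipoprotein receptor gene, went in opposite directions. It fell by 2.02 on the log2 scale in Kat5 ko clones (adjusted p = 0.0207 by edgeR), rose by 1.12 in Ep400 ko clones (adjusted p = 0.0142) and was higher by 3.10 in Ep400 ko than in Kat5 ko clones (adjusted p = 0.00601). *Cebpb*, which encodes a dimer partner of ATF4 and CHOP and is named after its values were seen, was the other of the 2 genes of this list called in the direct comparison, at 1.46 on the log2 scale (SE 0.239, adjusted p = 0.0294). Without Kat5/2, Kat5/3, Ep400/2 or Ep400/3, the call of *Cebpb* was lost, and without Kat5/1 the list had 6 genes called higher.

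The target lists followed the wildtype samples as the regulators did. Wildtype sample 3 had the highest and wildtype sample 2 the lowest list median for synthesis genes (0.18 and −0.25 on the log2 scale), transporters (0.51 and −0.42), synthetases (0.22 and −0.18) and other targets (0.26 and −0.19). This order was not particular to the target lists. The list for mTORC1 and its sensors, described below, had it too (0.14 and −0.14), and that of hypoxia targets had the reverse (−0.12 and 0.36).

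**Figure D4:**
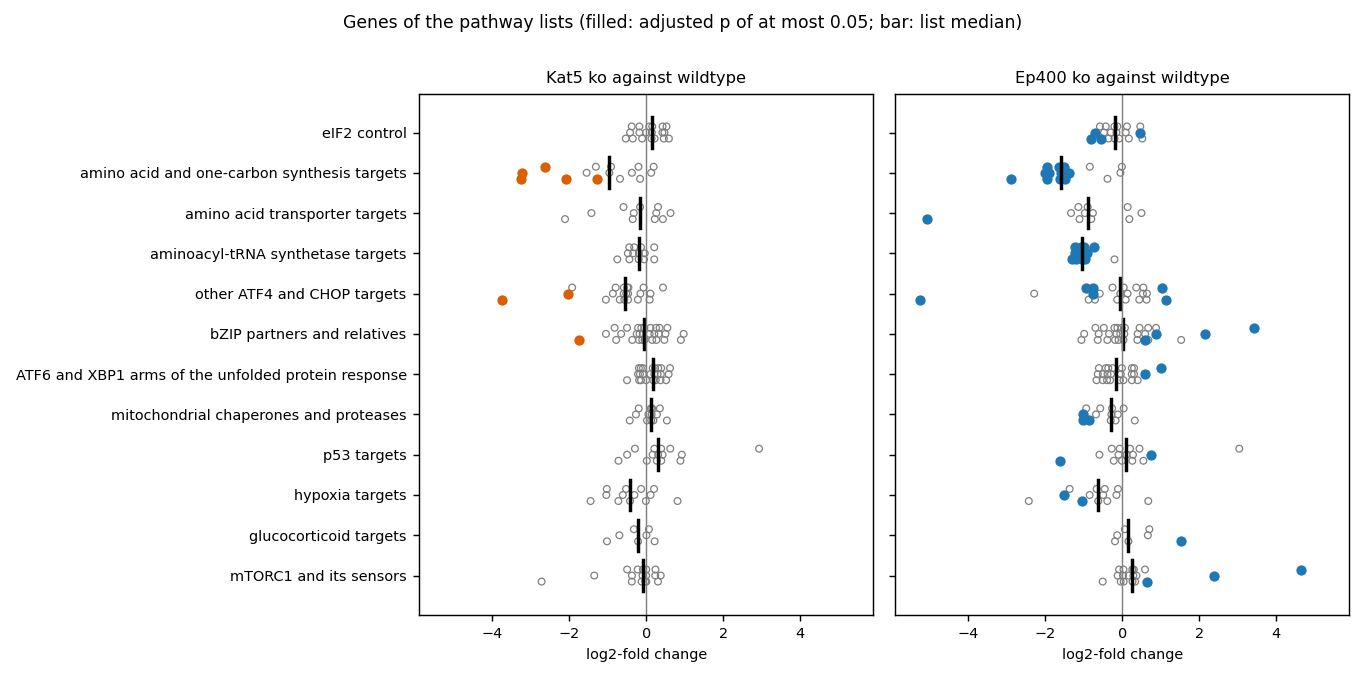
Log2-fold change of each tested gene of the 12 pathway lists in Kat5 ko clones (left) and Ep400 ko clones (right), filled where the adjusted p was at most 0.05, with bars at list medians and without *Fgf21*, which is at 0 in all Ep400 ko clones. The medians of synthesis genes lie at −0.96 and −1.60 and those of synthetases at −0.20 and −1.05, whereas the ATF6 and XBP1 arms lie at 0.17 and −0.16.

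Upstream of ATF4, the list for eIF2 control holds the eIF2 kinases, subunits of eIF2 and its exchange factor and the phosphatase subunits. It also holds *Gcn1l1*, *Impact* and the separate initiation factor genes *Eif2a* and *Eif2d*. In the Kat5 ko clones 0 of 19 passed by edgeR (median 0.13), 3 were higher and 1 lower at an unadjusted p of at most 0.05, and DESeq2 and limma-voom called 0. In the Ep400 ko clones 3 fell and 1 rose (median −0.20), where 5.72% of all genes were called lower and 8% higher. Those that fell were the initiation factor gene *Eif2d* (−0.82, adjusted p = 0.0167), the eIF2 beta subunit gene *Eif2s2* (−0.71, adjusted p = 0.0422) and the exchange factor gene *Eif2b4* (−0.55, adjusted p = 0.0360) by edgeR. The gene that rose, named after its values were seen, was *Eif2ak1* for the heme-regulated eIF2 kinase (0.45).

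The parallel ATF6 and XBP1 arms, which produce chaperones of the endoplasmic reticulum, had list medians of 0.17 for Kat5 and −0.16 for Ep400. In the Kat5 ko clones 0 of 24 passed by edgeR, 5 were higher at an unadjusted p of at most 0.05, DESeq2 called 1 higher and limma-voom 0. For Ep400, 2 of 24 rose, against 8% of all genes, the cochaperone gene *Dnajb9* by 1.00 (adjusted p = 0.0261) and *Atf6* itself by 0.59 (adjusted p = 0.0428) on the log2 scale. There 0 fell by edgeR, but 15 of 24 estimates were lower. At an unadjusted p of at most 0.05, 2 were higher and 6 lower, DESeq2 called 2 higher and 3 lower and limma-voom 2 higher and 1 lower. Of 13 genes for mitochondrial chaperones and proteases, 3 fell in the Ep400 ko clones by edgeR, where 5.72% of all genes were called lower. They were the chaperonin gene *Hspd1* at −1.02 (adjusted p = 0.0269), the protease gene *Clpp* at −1.01 (adjusted p = 0.0136) and the cochaperonin gene *Hspe1* at −0.86 (adjusted p = 0.0367). In the Kat5 ko clones 0 passed by edgeR, with 1 higher and 1 lower at an unadjusted p of at most 0.05 and 0 by DESeq2 or limma-voom.

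Among 29 other bZIP genes, 1 fell in the Kat5 ko clones, the circadian regulator *Dbp* (−1.75, adjusted p = 0.0224 by edgeR). Of 30 tested in the Ep400 ko clones, 4 rose, against 8% of all genes, and 0 fell by edgeR, with 6 lower at an unadjusted p of at most 0.05, 4 lower by DESeq2 and 0 by limma-voom. *Nfe2l2*, for the oxidative stress factor NRF2, rose from 208 ± 24.7 to 379 ± 51.1 CPM (0.87 on the log2 scale, adjusted p = 0.0121), and *Cebpa* from 0.169 ± 0.181 to 1.803 ± 0.802 CPM (adjusted p = 0.0223). The other genes that rose were *Hlf* (2.16 on the log2 scale, adjusted p = 0.0483) and *Atf6*, which is on this list too.

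Because *Sesn2* and *Ddit4* also respond to p53, hypoxia and glucocorticoids, lists for these inputs were set beside them. Of 15 p53 targets, 0 passed in the Kat5 ko clones by edgeR (median 0.30), 4 were higher at an unadjusted p of at most 0.05, DESeq2 called 2 higher and limma-voom 0. In the Ep400 ko clones *Phlda3* rose by 0.75 (adjusted p = 0.0393) and *Plk2* fell by 1.61 (adjusted p = 0.0166) on the log2 scale. Of 13 hypoxia targets, 0 passed for Kat5 by edgeR (median −0.43), 4 were lower at an unadjusted p of at most 0.05, DESeq2 called 2 lower and limma-voom 0. For Ep400, the collagen prolyl hydroxylase genes *P4ha2* (−1.51, adjusted p = 0.00337) and *P4ha1* (−1.05, adjusted p = 0.0367) fell by edgeR, with a list median of −0.63, where 5.72% of all genes were called lower. At an unadjusted p of at most 0.05, 1 hypoxia target was higher and 9 were lower there, DESeq2 called 5 lower and limma-voom 2.

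Of 7 glucocorticoid targets, *Klf9* rose in the Ep400 ko clones, from 19.6 ± 5.38 to 56.3 ± 14.2 CPM (1.52 on the log2 scale, adjusted p = 0.00985 by edgeR), and in the Kat5 ko clones 0 passed by edgeR, with 2 lower at an unadjusted p of at most 0.05, 1 lower by DESeq2 and 0 by limma-voom.

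Of 18 genes for mTORC1 and its amino acid sensors, 3 rose in the Ep400 ko clones. *Rragd* and *Rragb*, which encode Rag GTPases, rose from 0.147 ± 0.0557 to 3.69 ± 1.47 CPM (adjusted p = 0.00255) and from 0.441 ± 0.165 to 2.31 ± 0.800 CPM (adjusted p = 0.0146), and the mTOR subunit gene *Mlst8* rose by 0.65 on the log2 scale (adjusted p = 0.0462 by edgeR). In the Kat5 ko clones 0 of 17 passed by edgeR, with 1 higher and 3 lower at an unadjusted p of at most 0.05, 1 lower by DESeq2 and 0 by limma-voom.

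The smaller counts of these lists also rested on single libraries. For Ep400, the genes that fell were 1 or 2 for eIF2 control with any library left out, and 0 rose there without wildtype sample 1, 2 or 4, Ep400/2 or Ep400/3. For mitochondrial chaperones they were 1 without wildtype sample 1, 2 or 4 or Ep400/2 and 6 without Ep400/1. The ATF6 and XBP1 list had 0 higher without wildtype sample 1 or 2 or Ep400/2 and 1 without any other library, while 2 fell without wildtype sample 3 and 3 without Ep400/1. The bZIP genes that rose were 1 without wildtype sample 1 or 4 and 2 without wildtype sample 2 or Ep400/2. Of the p53 targets, 0 rose when a wildtype sample or Ep400/1 was missing, and 2 fell without Ep400/3. Hypoxia targets that fell were 1 without wildtype sample 1, 2 or 4, 3 without Ep400/3 and 4 without wildtype sample 3. Transporters that fell were 3 without wildtype sample 2 or Ep400/1, glucocorticoid targets that rose were 2 without Ep400/1, and other ATF4 and CHOP targets that fell were 3 without wildtype sample 1 or 4. For Kat5, those other targets were 0 without wildtype sample 1, wildtype sample 4 or Kat5/3, 1 without Kat5/2 and 6 without Kat5/1. Of the bZIP genes, 1 fell without wildtype sample 2, 2 fell and 3 rose without Kat5/1, and 0 were called without any other library. The lists with 0 calls for Kat5 gained calls only without Kat5/1, where 5 genes of eIF2 control rose and 1 fell, 3 of the ATF6 and XBP1 list rose and 1 fell, 3 hypoxia targets fell, 2 p53 targets rose, and each other such list had 1 or 2 calls.

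Genes with the profile most like that of a regulator were taken as those with the smallest root mean square difference of log2 deviations from the wildtype mean over all 10 libraries, among 13093 genes. For *Atf4* these were *Mid1ip1* (0.214), *Xrcc5* (0.219), *Mri1* (0.259), *Gm5835* (0.264) and the synthetase gene *Aars* (0.270). For *Ddit3* they included *Rcan1* (0.246), *Rasip1* (0.315), *Gm20522* (0.317) and *M1ap* (0.317). For *Trib3* they included *Aldh1l2* (0.626), *Gpt2* (0.721), *Dennd3* (0.807) and *Chac1* (0.908). Among the regulators, *Nupr1* ranked at 13 for *Trib3* but *Trib3* at 64 for *Nupr1*, and *Nupr1* and *Chac1* each ranked at 8 for the other. For *Atf4* the other regulators ranked between 775 (*Ddit3*) and 12626 (*Trib3*).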

How the data were processed

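Poly-A RNA of 10 libraries was examined. According to the methods the authors made stranded mRNA libraries, sequenced them in pairs on an Illumina NovaSeq and aligned reads to the build mm10. The submitters' notes name bcl2fastq 2.20, STAR 2.7.3, DESeq2 1.36.0 and R 4.2.1, and the annotation and strand setting of the counting are not given in the sources used here. The analysis used the deposited raw counts, whole numbers of reads assigned to each gene by the authors, and the normalized tables that the authors derived from them were not used.

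Groups came from the labels. The regulators, the pathway lists and the rule for named genes (all 10 regulators, up to 3 genes with the largest called change per list and comparison outside the wildtype range, and the 5 genes most like *Atf4*, *Ddit3* and *Trib3*) were chosen with earlier results of these data known. A few genes that this rule names are not reported here. With R 4.3.3, each comparison of 2 groups was filtered by filterByExpr, scaled by TMM and tested with edgeR 4.0.16 (robust quasi-likelihood fit, Benjamini-Hochberg adjustment over all genes tested). A call is an adjusted p of at most 0.05. DESeq2 1.42.0, limma 3.58.1 (voom), other scalings and filters, a single fit, a replicate block and each library left out were alternatives. Log2 CPM had a prior count of 2. A simulation with 200 genes changed by 2 on the log2 scale recovered 154, 153 and 103 of them in the Kat5, Ep400 and direct comparisons, among 13256, 13665 and 13391 genes. False calls numbered 12, 14 and 5, and the recovery holds for changes of that size only. Gene positions are those of GENCODE M21 on GRCm38 (mm10), promoters those of RefSeq. Wildtype samples are called independent by the study, and each group of clones shares 1 guide. The p-values thus set group differences against the spread between these samples and clones. No clone of unedited cells was among the samples, so cloning and knockout cannot be told apart.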

Additional observations from a re-analysis of the deposited data

Results flagged for a closer look

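Wildtype sample 3 stood apart from the other wildtype samples for *Nupr1*, with 60.4 CPM against 26.3 to 31.2 CPM. The gap to the nearest sample was 0.855 of the range of the 4 samples, above Dixon's critical value for that number. The same sample stood apart for *Sesn2*, with 82.7 CPM against 51.6 to 56.0 CPM and a gap of 0.858 of the range. Chance gives such a gap in about 1 in 20 groups. It was looked for in the wildtype samples of the 10 regulators, since groups of 3 clones are too small. Without wildtype sample 3, the log2-fold change of *Nupr1* was −1.98 for Kat5 and −2.06 for Ep400, and that of *Sesn2* −0.025 and −0.38.

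*Atf5* was the only regulator called in the direct comparison of Ep400 ko with Kat5 ko clones, at 1.41 on the log2 scale (adjusted p = 0.0433 by edgeR). All 3 Ep400 ko clones were above all 3 Kat5 ko clones. The gene was chosen with both differences from wildtype known, so this p-value is no independent evidence. Of all genes, 7.05% were called in this comparison, and 20.5% were higher in Ep400 ko clones without overlap. The adjusted p ranged from 0.00145 to 0.150 over the alternatives. The call was lost without Kat5/2, Kat5/3, Ep400/1, Ep400/2 or Ep400/3.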

How the results depend on the processing

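Of 440 log2-fold changes of the regulators under the alternatives, 378 kept their direction and their side of the threshold, 36 lost and 13 gained a call, and 13 turned their sign. For Kat5, the 84 genes and 4 regulators called became 1382 and 8 with DESeq2, 27 and 2 with a single fit of all libraries and 2996 and 9 at an unadjusted p, while limma-voom called 2 regulators and leaving out the filter on low counts gave 286 genes. For Ep400, the 1899 genes called became 3175 with DESeq2, 888 with the thresholds of the study's methods added and 4453 at an unadjusted p. Between the knockouts, the 958 genes and 1 regulator became 3039 and 2 with DESeq2 and 4400 and 3 at an unadjusted p, with 1445 genes without the filter and 3555 with a single fit. With library size alone as the scaling, the median of all genes in this comparison moved by 0.13 on the log2 scale, and the split of 573 higher and 385 lower genes became 630 and 238. With 1 library left out, 1 to 2654 genes and 0 to 8 regulators were called for Kat5, 804 to 2020 genes and 3 to 4 regulators for Ep400, and 3 to 2537 genes and 0 to 1 regulators between the knockouts.

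Deviations of libraries with the same number from their group means had correlations of −0.096 to 0.223. The labels give no pairing of these libraries, and with so few libraries this check cannot exclude one. The replicate block called 0 genes and 0 regulators for Kat5, 166 genes and 1 regulator (*Ddit4*) for Ep400, and 213 genes and 1 regulator between the knockouts. At an unadjusted p of at most 0.05 without the block, 2996 genes and 9 regulators were counted for Kat5.

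Signs turned for small values. *Sesn2* in Kat5 ko clones ranged from −0.46 to 0.087 with 1 library left out. *Atf3* in Ep400 ko clones, at 0.12, was −0.18 with limma-voom, −0.12 with the replicate block and −0.66 to 0.51 with 1 library left out. Between the knockouts, *Atf4*, at −0.014, was 0.10 with library size alone, 0.033 with at least 10 counts in every library, 0.0044 with a single fit and −0.32 to 0.27 with 1 library left out, and *Nupr1* was −0.69 to 0.20. The cause of these changes was not tested. The regulators had at least 83 counts per library, and 3 clones per group limit the precision.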
